A study of Mus musculus with 16 samples.

Results

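The genes of 9 blood group and surface glycoproteins of the red cell were followed through late erythroid differentiation: *Gypc*, *Rhd*, *Kel*, *Xk*, *Ermap*, *Icam4*, *Cd47*, *Bcam* and *Slc14a1*. They were chosen by name, as the 9 rows carrying these symbols among the 46078 genes counted in each library. RNA was sequenced from bone marrow erythroblasts of *Ypel4*+/+ and *Ypel4*-/- mice, sorted with antibodies against Ter119 and CD44 into polychromatic (Poly-E) and orthochromatic (Ortho-E) erythroblasts, with 4 libraries in each of the 4 groups. All groups were in steady state, without treatment, and all carried 1 strain label, which joins the background C57BL/6N-A<tm1Brd> to the gene-trap allele Ypel4<tm1a(EUCOMM)Wtsi> of WtsiIeg. *Ypel4*-/- mice were homozygous for this allele, which is not limited to 1 tissue, and *Ypel4*+/+ mice were wild type. The ages of the mice were not given in the sources used here. *Ypel4* encodes a Yippee-like protein, and the comparison of genotypes asks whether its loss alters transcription in the last nucleated stages before the red cell.

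Blood group antigens are inherited differences on proteins or sugars of the red cell surface, and most of the proteins that carry them belong to larger membrane complexes. Kell, a zinc endopeptidase, is joined to the XK protein by a disulfide bond. The Rh protein sits with the Rh-associated glycoprotein Rhag in a complex that also holds CD47 and the LW glycoprotein Icam4 and that is tied to band 3 (*Slc4a1*), the anion exchanger. Glycophorin C (*Gypc*) anchors the membrane to the spectrin skeleton through protein 4.1 (*Epb41*) and p55 (*Mpp1*). As a cell passes from Poly-E to Ortho-E, it shrinks, condenses its nucleus and stops making most of its RNA, while the messages for hemoglobin and membrane proteins are retained.

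Depth ran from 2670173 to 12451234 counts per library, and globin genes took 5.39% to 6.46% of the counts in Poly-E and 10.8% to 14.0% in Ortho-E. The targeted gene checks the labels: loss of *Ypel4* left 15.9 ± 5.69 of 577 ± 105 CPM among Poly-E libraries, and 205 ± 22.4 of 4965 ± 505 CPM among Ortho-E libraries (mean ± SD, 4 libraries a group). CPM are counts per 1000000 after scaling by TMM, which assumes that most genes keep their level. The late erythroid markers were all detected, 10 of 10 in each group, with summed levels from 56448 to 68992.5 CPM in Poly-E and from 231915 to 320274 CPM in Ortho-E. Marker lists of other cells were low. Their summed levels in Poly-E and Ortho-E libraries were 27.7 to 36.8 and 91.3 to 113 CPM for 7 megakaryocyte and platelet genes, 11.2 to 25.3 and 18.9 to 39.6 CPM for 7 lymphocyte genes, and 3.75 to 9.72 and 5.14 to 22.9 CPM for 12 granulocyte and monocyte genes. They were 1.55 to 3.85 and 4.00 to 10.8 CPM for 8 macrophage genes, and 0.414 to 1.85 and 1.27 to 5.71 CPM for 6 endothelial and stromal genes. The lymphocyte sums in Ortho-E were 18.9 to 24.6 CPM in *Ypel4*+/+ and 31.6 to 39.6 CPM in *Ypel4*-/- libraries, without overlap. In Poly-E they were 11.2 to 16.4 and 15.6 to 25.3 CPM, which overlapped. Their part in the comparison of genotypes was not tested. *Cd3e* and *Emcn* had no count in any library. In sorted bulk samples, a smaller number of cells of a type and less RNA per cell cannot be told apart.

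The members differed widely in level. Levels of different genes were compared per length, as CPM per kb of exon, with the full exon length of each gene. A shorter length for *Cd47* is taken up below. In *Ypel4*+/+ Poly-E cells the highest was *Rhd*, at 820.1 ± 27.8 CPM per kb (SD, n = 4), followed by *Kel* at 443 ± 67.1, *Ermap* at 306 ± 19.7, *Gypc* at 278 ± 9.44, *Icam4* at 154 ± 10.8, *Cd47* at 91.6 ± 4.44, *Slc14a1* at 59.5 ± 1.39 and *Xk* at 17.6 ± 3.15 CPM per kb. With these lengths the ranges of *Ermap* and *Gypc* overlapped, and those of all other neighbours in this order did not. The order was the same in *Ypel4*-/- Poly-E cells, where again only the ranges of *Ermap* and *Gypc* overlapped. In Ortho-E cells the order of both genotypes ran *Kel*, *Rhd*, *Ermap*, *Gypc*, *Cd47*, *Icam4*, *Slc14a1* and *Xk*. Among the *Ypel4*+/+ Ortho-E libraries *Kel* reached 1435 ± 144 CPM per kb and *Rhd* 1139 ± 93.9. The *Ypel4*-/- libraries of that population gave 1367 ± 84.2 for *Kel* and 1058 ± 103 for *Rhd* (mean ± SD, n = 4 each). In *Ypel4*+/+ Ortho-E cells the ranges of neighbours were separate, and in *Ypel4*-/- Ortho-E cells those of *Rhd* and *Ermap* and those of *Gypc* and *Cd47* overlapped. From the highest to the lowest detected member, the mean level per length spanned 46.5-fold in *Ypel4*+/+ Poly-E and 58.5-fold in *Ypel4*+/+ Ortho-E cells.

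**Figure D1:**
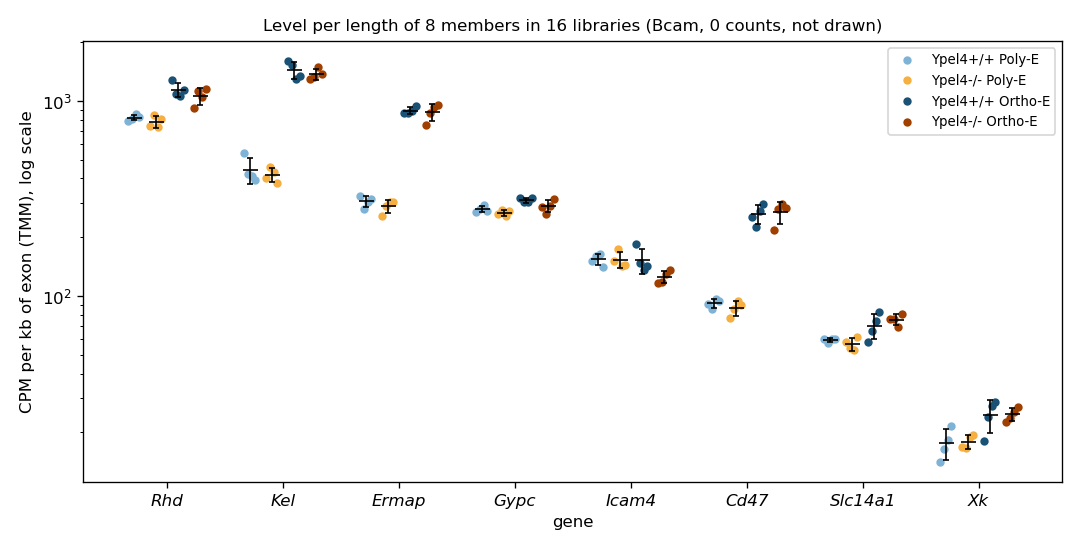
Level per length of 8 members (CPM per kb of exon after TMM scaling, log axis) in each library, with the mean and SD of 4 libraries per group in black. *Rhd* leads in Poly-E and *Kel* in Ortho-E cells of both genotypes, and *Xk* is the lowest in all 4 groups.

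*Bcam*, on chromosome 7 from 19756131 to 19771016 (- strand, GRCm38, ENSMUSG00000002980, 3199 exon bases), had 0 counts in each of the 16 libraries. It encodes the Lutheran glycoprotein, a receptor for laminin. Of the 87208029 counts in all, 3 counts would be 0.0300 CPM on the TMM scale, which is the level that a count of 0 still allows over the 16 libraries together. Within a group the same limit was 0.0803 CPM in *Ypel4*+/+ Poly-E and 0.263 CPM in *Ypel4*+/+ Ortho-E cells, counting error only. *Bcam* shares 52 exon bases, 1.63% of its exons, with *Gm26600* on the opposite strand, also at 0 counts, and reads over both genes would not have been counted. With 0 counts *Bcam* entered no test, and 8 of the 9 members were tested in every comparison.

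The sequence just before the start of the members was read for motifs of erythroid factors. Whether these motifs bear on the changes between the populations was not tested. RefSeq promoters (250 bases before to 50 after the start, GRCm38.p6) were at hand for 7 of the 9 members, and for *Rhag* and *Mpp1*. A GATA motif (TGATAA or AGATAA or TGATAG or AGATAG, either strand) stood in the 250 bases before the start of *Kel*, *Ermap*, *Rhd*, *Icam4*, *Rhag* and *Mpp1*, and none was found in those windows of *Xk*, *Cd47* and *Bcam*. Of all 32851 promoters in the same table, 26.5% held such a motif in these 250 bases. The motif nearest the start lay 19 bases before it in *Kel*, which had another at 56, and 31 bases before it in *Rhag*, 43 in *Rhd* and in *Icam4*, 67 in *Ermap* and 147 in *Mpp1*. A CACCC-type motif (CCNCNCCC, either strand), the kind that Klf1 binds, stood in the 250 bases before *Icam4*, *Bcam* and *Xk*, against 45.9% of all promoters. Of the 13 matches in *Xk*, which overlap in part, most are the letters GGGGGGGG read at successive bases of 1 run of G. These begin 196 to 187 bases before the start. The matches of *Xk* nearest to the start lay 10 and 8 bases before it, and those of *Bcam* lay 40 and 28 bases before it. The stretches around the motifs nearest the start are shown 5′ to 3′ on the strand of the gene, so that the promoters with either motif can be set side by side. Capitals mark the matches.
Kel: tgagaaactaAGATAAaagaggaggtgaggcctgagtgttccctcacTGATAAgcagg
Ermap: aacgctcgctTTATCAggggt
Rhd: cggcagcctgAGATAAgacct
Rhag: tcctctgctcTTATCAacact
Xk: acgctacctgCCCCACCCCC
Bcam: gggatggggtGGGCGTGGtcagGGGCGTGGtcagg
Icam4: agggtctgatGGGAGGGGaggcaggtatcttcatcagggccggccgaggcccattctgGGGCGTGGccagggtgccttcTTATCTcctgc
They lie at chr6:41704334-41704391 (*Kel*, - strand), chr4:119190052-119190072 (*Ermap*, - strand), chr4:134864483-134864503 (*Rhd*, + strand), chr17:40811108-40811128 (*Rhag*, + strand), chrX:9272764-9272783 (*Xk*, + strand), chr7:19770548-19770582 (*Bcam*, - strand) and chr9:21029310-21029399 (*Icam4*, + strand). The capitals are GATA matches in *Kel*, *Ermap*, *Rhd* and *Rhag* and CACCC-type matches in *Xk* and *Bcam*, where the 2 of *Xk* overlap. In *Icam4* they are 2 CACCC-type matches followed by a GATA match, all read from the opposite strand. The stretches of *Kel*, *Rhag*, *Xk*, *Bcam* and *Icam4* reach into or lie in the gene as the deposited counts place it. A match in these letters is a description and no measure of binding.

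Ortho-E and Poly-E cells were compared within each genotype to ask how the members moved in the last step before the nucleus is lost. The result depended on how libraries were scaled: over all 16 libraries the TMM factors ran from 1.45 to 1.64 in Poly-E and from 0.606 to 0.726 in Ortho-E. With TMM, 6 of the 8 members tested were higher in Ortho-E and 0 lower in *Ypel4*+/+ cells, beside 26.4% of all 11747 genes tested called higher and 32.1% called lower (edgeR's quasi-likelihood test, Benjamini-Hochberg adjusted p at most 0.05). In *Ypel4*-/- cells 7 members were higher and 0 lower, beside 29.5% of 11973 genes called higher and 31.5% lower. With library totals in place of TMM, 3 members were higher and 5 lower in each genotype, beside 10.4% of genes higher and 60.3% lower in *Ypel4*+/+ cells and 11.2% higher and 60.9% lower in *Ypel4*-/- cells. Fold changes come from a fit of the 8 libraries of a genotype, with TMM factors of their own, and so need not equal the ratio of the printed CPM, whose factors span 16 libraries. The median log2 difference of all genes was -0.19 with TMM and -1.45 with library totals in *Ypel4*+/+ cells, and -0.089 and -1.47 in *Ypel4*-/- cells. The median of the 8 members was 0.51 with TMM and -0.78 with library totals in *Ypel4*+/+ cells, and 0.62 and -0.80 in *Ypel4*-/- cells. *Kel*, *Ermap* and *Cd47* were higher in Ortho-E under both scalings in both genotypes. *Rhd*, *Xk*, *Slc14a1* and *Gypc* had positive log2 differences with TMM and were lower with library totals. Megakaryocyte and platelet, lymphocyte and macrophage marker sums were also higher in Ortho-E on the TMM scale, as given above, and their part in these differences was not tested. Steps and call counts of the genotypes come from separate fits and are not to be compared with each other. In 1 fit of all 16 libraries *Rhd* rose 1.39-fold in *Ypel4*+/+ and 1.36-fold in *Ypel4*-/- cells. In that order *Xk* rose 1.39-fold and 1.38-fold, *Cd47* 2.86-fold and 3.11-fold, and *Ermap* 2.91-fold and 3.04-fold. *Gypc* was at 1.11-fold and 1.08-fold, which did not pass. *Kel*, *Slc14a1* and *Icam4* in this fit are given below.

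**Figure D2:**
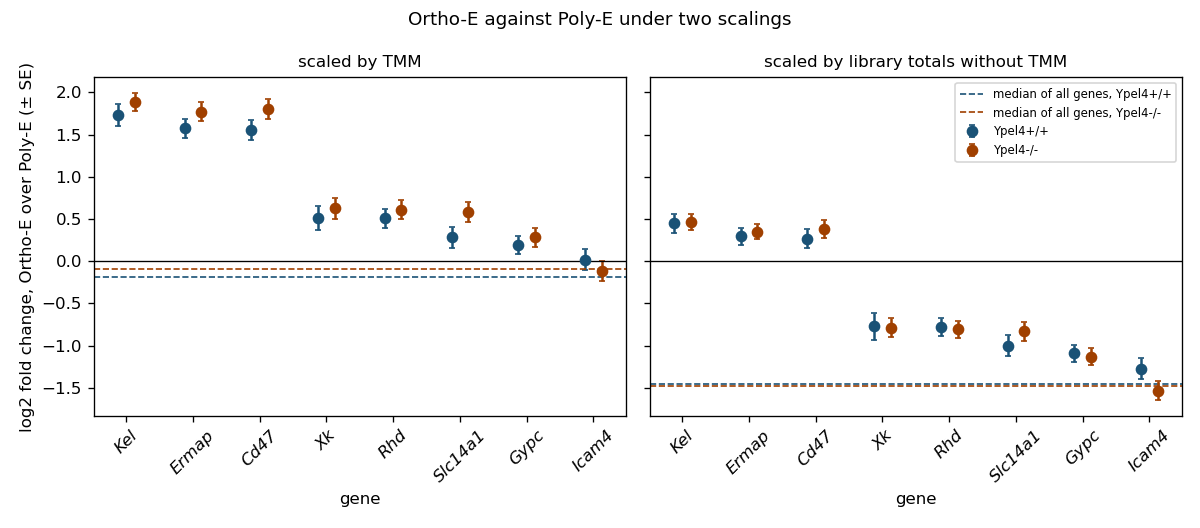
Log2 fold change of 8 members from Poly-E to Ortho-E (points, ± SE, edgeR) in *Ypel4*+/+ and *Ypel4*-/- mice, scaled by TMM (left) or by library totals (right), with the median of all genes tested as dashed lines. *Kel*, *Ermap* and *Cd47* lie above 0 in both panels, whereas *Xk*, *Rhd*, *Slc14a1* and *Gypc* lie above 0 on the left and below 0 on the right.

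*Kel* and *Xk* encode the partners of the Kell complex, and they moved apart. *Kel* lies on chromosome 6 from 41686330 to 41704339 (- strand, GRCm38, ENSMUSG00000029866, 2773 exon bases). In *Ypel4*+/+ mice the 4 Poly-E libraries held 1503, 1175, 1142 and 1094 CPM of *Kel*, and the 4 Ortho-E libraries 4417, 4205, 3575 and 3716 CPM. Those of *Ypel4*-/- mice held 1113, 1274, 1194 and 1055 CPM in Poly-E and 3592, 3668, 4121 and 3783 CPM in Ortho-E. Every Ortho-E library was above every Poly-E library in each genotype. *Kel* rose 3.31-fold in *Ypel4*+/+ cells (log2 difference 1.73, SE 0.13, edgeR adjusted p = 6.91e-12), which was 1.92 above the median of all genes. With library totals the log2 difference was 0.45 (SE 0.11, edgeR adjusted p = 7.97e-04). The rise was 3.70-fold in *Ypel4*-/- cells (log2 difference 1.89, SE 0.11, edgeR adjusted p = 3.22e-16), where library totals gave a log2 difference of 0.46 (SE 0.095, edgeR adjusted p = 6.73e-05). With all 16 libraries in 1 fit, on the scale of the printed CPM, the rise was 3.24-fold in *Ypel4*+/+ and 3.27-fold in *Ypel4*-/- cells. *Gm37527*, a separately counted gene inside the span of *Kel* on the same strand, shares no exon base with it and had 26129 counts over the 16 libraries. Its log2 difference was 2.06 in *Ypel4*+/+ and 2.16 in *Ypel4*-/- cells with TMM (0.79 and 0.74 with library totals).

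*Xk* lies on chromosome X from 9272756 to 9313250 (+ strand, ENSMUSG00000015342, 5076 exon bases) and encodes a multipass membrane protein whose absence in humans gives the McLeod phenotype. *Xk* was at 71.7, 83.6, 93.1 and 109.6 CPM in *Ypel4*+/+ Poly-E, against 92.1, 122, 138 and 145 CPM in *Ypel4*+/+ Ortho-E libraries, and these ranges overlapped. Libraries of *Ypel4*-/- mice held 85.3, 84.4, 96.0 and 98.5 CPM in Poly-E and 115, 121, 129.9 and 137 CPM in Ortho-E, and these did not. The log2 difference of *Xk* was 0.51 (SE 0.15, edgeR adjusted p = 0.0043) in *Ypel4*+/+ and 0.63 (SE 0.12, edgeR adjusted p = 4.39e-05) in *Ypel4*-/- cells with TMM, and it turned to -0.77 and -0.79 with library totals. These levels rest on 3498 counts of *Xk* in *Ypel4*+/+ Poly-E cells and 1470 in *Ypel4*+/+ Ortho-E cells, summed over 4 libraries each. *1700012L04Rik*, inside the span of *Xk* with no shared exon base, had 51 counts over all 16 libraries. *Vps13a*, which encodes a lipid transfer protein that binds XK, fell under both scalings in both genotypes, with log2 differences of -1.21 and -1.10 with TMM and -2.50 and -2.52 with library totals.

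The ratio of 2 genes in a library does not depend on scaling. *Kel* stood at 38.3, 25.7, 22.4 and 18.3 times the *Xk* count per kb in the 4 *Ypel4*+/+ Poly-E libraries and at 87.6, 62.8, 47.3 and 46.8 times in the Ortho-E libraries. Without *Ypel4* the ratios were 23.9, 27.6, 22.7 and 19.6 in Poly-E, against 57.0, 55.6, 58.0 and 50.7 in Ortho-E. All Ortho-E ratios were above all Poly-E ratios in each genotype. The geometric mean ratio was 2.34-fold higher in Ortho-E than in Poly-E cells of *Ypel4*+/+ and 2.37-fold higher in those of *Ypel4*-/- mice. Each of these differences had an exact permutation p = 0.0286 (two-sided), the smallest that 4 libraries against 4 allow, and p = 0.0571 after Benjamini-Hochberg adjustment over the 12 ratio comparisons. That test treats the 8 libraries as independent. Within the 4 pairs of libraries read as 1 mouse each, the exact two-sided sign-flip p was 0.125 for this ratio and for the other 2 in each genotype, the smallest that 4 pairs allow. In both populations of *Ypel4*+/+ mice replicate 1 had the highest ratio. *Kel* also passed *Rhd*: per length, *Rhd* was above *Kel* in 4 of 4 Poly-E libraries of each genotype and below it in 4 of 4 Ortho-E libraries of each.

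*Rhd* encodes the Rh blood group protein and lies on chromosome 4 from 134864536 to 134896172 (+ strand, ENSMUSG00000028825, 1594 exon bases). Its level was 1261, 1287, 1365 and 1316 CPM in *Ypel4*+/+ Poly-E and 2025, 1727, 1691 and 1817 CPM in *Ypel4*+/+ Ortho-E libraries. Without *Ypel4* it was 1178, 1346, 1167 and 1278 CPM in Poly-E and 1462, 1791, 1669 and 1823 CPM in Ortho-E. The populations did not overlap in either genotype on this scale, with Ortho-E above. The log2 difference was 0.51 (SE 0.11, edgeR adjusted p = 3.86e-04) in *Ypel4*+/+ and 0.61 (SE 0.11, edgeR adjusted p = 1.57e-05) in *Ypel4*-/- cells with TMM, and -0.78 and -0.81 with library totals. *Rhag*, its partner, rose under both scalings, with log2 differences of 1.71 and 1.87 with TMM and 0.43 and 0.45 with library totals. *Rhd* counts per kb were 2.12, 2.56, 3.04 and 3.04 times those of *Rhag* in *Ypel4*+/+ Poly-E libraries and 1.20, 1.01, 1.17 and 1.20 times in Ortho-E libraries. The *Ypel4*-/- ratios were 2.58, 2.61, 2.69 and 3.25 in Poly-E, against 0.949, 1.25, 1.15 and 1.33 in Ortho-E. The ratio was thus lower in every Ortho-E library than in every Poly-E library, 2.32-fold lower in *Ypel4*+/+ and 2.39-fold lower in *Ypel4*-/- cells (exact permutation p = 0.0286 each, adjusted p = 0.0571).

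**Figure D3:**
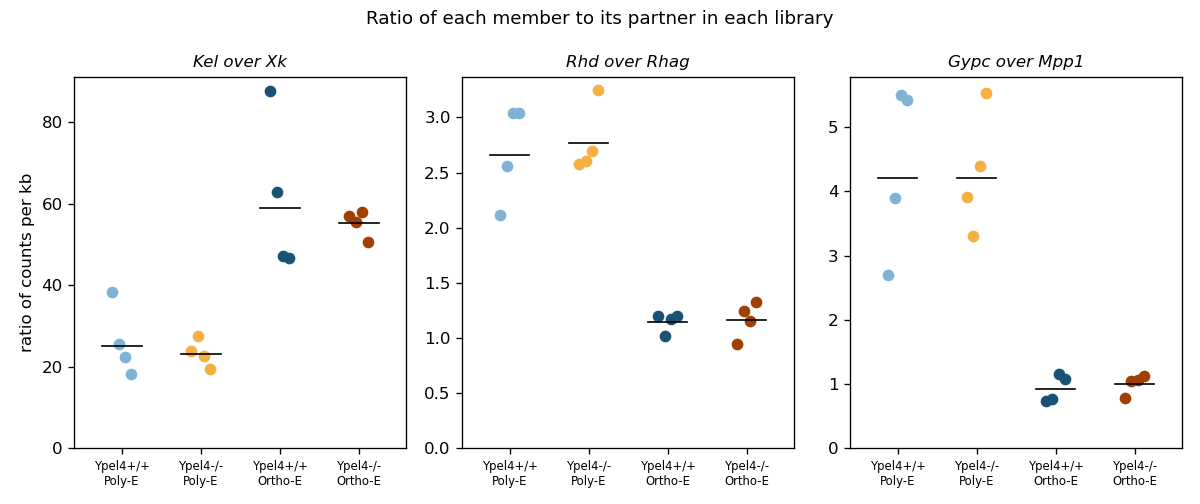
Ratio of the counts per kb of *Kel* to *Xk*, *Rhd* to *Rhag* and *Gypc* to *Mpp1* in each library (points, replicates 1 to 4 from left to right), with the geometric mean of 4 libraries as a line and the axes starting at 0. Ortho-E and Poly-E libraries are separate in each panel, and the genotypes overlap within each population.

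*Cd47* encodes the integrin-associated protein, the ligand of SIRPα that restrains phagocytosis, and lies on chromosome 16 from 49855618 to 49915010 (+ strand, ENSMUSG00000055447, 5277 exon bases). It was at 481, 452, 507 and 495 CPM in *Ypel4*+/+ Poly-E, against 1344, 1192, 1439 and 1564 CPM in *Ypel4*+/+ Ortho-E libraries. The *Ypel4*-/- libraries held 406, 451, 497 and 474 CPM in Poly-E and 1155, 1467, 1561 and 1495 CPM in Ortho-E. Each Ortho-E library was above each Poly-E library. *Cd47* rose 2.93-fold in *Ypel4*+/+ (log2 difference 1.55, SE 0.12, edgeR adjusted p = 1.40e-11) and 3.49-fold in *Ypel4*-/- cells (1.80, SE 0.12, edgeR adjusted p = 8.99e-15) with TMM. With library totals the log2 differences were 0.27 (SE 0.11, edgeR adjusted p = 0.0325) and 0.38 (SE 0.10, edgeR adjusted p = 0.0012). Of the exon bases of *Cd47*, 1815, or 34.4%, are shared with *AC107830.1* on the same strand, which has 0 counts, and reads over both were not counted. The length that is left is 3462 bases. With it, *Cd47* in *Ypel4*+/+ cells was at 139.7 CPM per kb in Poly-E and 400.0 in Ortho-E (means), in place of 91.6 and 262. It then stood above *Gypc* in Ortho-E. In Poly-E its range then overlapped that of *Icam4* in both genotypes. The ranges were 131 to 146 against 140 to 164 CPM per kb in *Ypel4*+/+ and 117 to 144 against 143 to 174 in *Ypel4*-/- cells. In *Ypel4*-/- Ortho-E cells its range, 334 to 451 CPM per kb, then lay above that of *Gypc*, 264 to 314.

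*Icam4* encodes the LW glycoprotein, a ligand of integrins, and lies on chromosome 9 from 21029373 to 21030531 (+ strand, ENSMUSG00000001014, 907 exon bases). It was the tested member nearest to no change with TMM. In *Ypel4*+/+ mice it was at 138, 146, 149 and 127 CPM in Poly-E and at 168, 133, 124 and 128 CPM in Ortho-E libraries, which overlapped. Among *Ypel4*-/- libraries it was at 137, 158, 129 and 131 CPM in Poly-E and at 106, 108, 117 and 124 CPM in Ortho-E, where each library was below each Poly-E library. The log2 differences with TMM were 0.016 (SE 0.12, edgeR adjusted p = 0.924) and -0.11 (SE 0.12, edgeR adjusted p = 0.422), and with library totals they were -1.27 (SE 0.12, edgeR adjusted p = 9.61e-10) and -1.53 (SE 0.11, edgeR adjusted p = 2.87e-13). Set against the median of all genes, the TMM values of *Icam4* were 0.21 and -0.025.

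*Gypc* lies on chromosome 18 from 32528322 to 32560034 (- strand, ENSMUSG00000090523, 2331 exon bases) and carries the Gerbich antigens. Its levels were 629, 651, 678 and 633 CPM in *Ypel4*+/+ Poly-E and 737, 705, 703 and 744 CPM in *Ypel4*+/+ Ortho-E libraries, with Ortho-E above throughout. Those of *Ypel4*-/- mice were 612, 639, 599 and 636 CPM in Poly-E and 668, 616, 675 and 731 CPM in Ortho-E, and these overlapped. The log2 difference with TMM was 0.19 (SE 0.11) in *Ypel4*+/+ cells, which did not pass the test (edgeR adjusted p = 0.141), and it passed with the replicate number as a block (edgeR adjusted p = 0.0458). In *Ypel4*-/- cells it was 0.28 (SE 0.11, edgeR adjusted p = 0.0255). This call was lost without Ortho-E replicate 1 (0.25), 2 (0.29), 3 (0.23) or 4 (0.22) or Poly-E replicate 3 (0.27), and in *Ypel4*+/+ cells one was gained without Poly-E replicate 1 (0.29), 2 (0.29), 3 (0.33) or 4 (0.30). With library totals the log2 differences of *Gypc* were -1.09 and -1.13, past the test in both genotypes.

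The skeletal partners of *Gypc* rose in Ortho-E. *Mpp1* had log2 differences of 2.36 and 2.37 with TMM (1.08 and 0.95 with library totals) in *Ypel4*+/+ and *Ypel4*-/- cells, and *Epb41* had 3.17 and 3.50 (1.89 and 2.08), all past the test. *Gypc* counts per kb were 2.70, 3.90, 5.49 and 5.42 times those of *Mpp1* in *Ypel4*+/+ Poly-E libraries and 0.735, 0.772, 1.15 and 1.09 times in Ortho-E libraries. Without *Ypel4* they were 3.91, 3.30, 4.39 and 5.54 times in Poly-E, against 0.791, 1.05, 1.06 and 1.12 times in Ortho-E. The ratio was lower in each Ortho-E library, by 4.58-fold in *Ypel4*+/+ and 4.23-fold in *Ypel4*-/- cells (exact permutation p = 0.0286 each, adjusted p = 0.0571). *Mpp1* itself varied among replicates, from 268 to 535 CPM in *Ypel4*+/+ Poly-E libraries, and it shares 45 exon bases with *Dkc1*.

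*Ermap*, on chromosome 4 from 119175457 to 119190011 (- strand, ENSMUSG00000028644, 5297 exon bases), encodes an erythroid immunoglobulin-family protein that carries the Scianna antigens. It was at 1729.8, 1485, 1604 and 1665 CPM in *Ypel4*+/+ Poly-E, against 4575, 4606, 4681 and 4999 CPM in *Ypel4*+/+ Ortho-E libraries. Among *Ypel4*-/- libraries it was at 1361, 1532, 1613 and 1605 CPM in Poly-E and at 3989.9, 4594, 4943 and 5023 CPM in Ortho-E. The populations did not overlap in either genotype, and the spread within each group was small beside the step between them. *Ermap* rose 2.98-fold in *Ypel4*+/+ (log2 difference 1.57, SE 0.12, edgeR adjusted p = 4.67e-12) and 3.41-fold in *Ypel4*-/- cells (1.77, SE 0.11, edgeR adjusted p = 3.19e-15) with TMM, and by log2 differences of 0.29 (SE 0.099, edgeR adjusted p = 0.0111) and 0.35 (SE 0.092, edgeR adjusted p = 0.0011) with library totals.

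*Slc14a1*, on chromosome 18 from 78100091 to 78142119 (- strand, ENSMUSG00000059336, 3995 exon bases), encodes the urea transporter UT-B that carries the Kidd antigens. It was at 239.9, 229, 241 and 240.1 CPM in *Ypel4*+/+ Poly-E, against 233, 265, 297 and 332 CPM in *Ypel4*+/+ Ortho-E libraries, and these ranges overlapped. The values without *Ypel4* were 233, 216, 211 and 247 CPM in Poly-E and 306, 303, 278 and 324 CPM in Ortho-E, and these did not. With TMM the log2 difference was 0.28 (SE 0.12) in *Ypel4*+/+ cells, at the edge of the threshold (edgeR adjusted p = 0.0497), and 0.59 (SE 0.12, edgeR adjusted p = 6.44e-05) in *Ypel4*-/- cells, and with library totals it was -0.999 and -0.83. The call in *Ypel4*+/+ cells was lost without Ortho-E replicate 3 (0.26, edgeR adjusted p = 0.113) or 4 (0.21, edgeR adjusted p = 0.157). In 1 fit of all 16 libraries the log2 differences were 0.25 and 0.42. The difference between the genotypes in this step did not pass the test of the interaction (0.17, SE 0.17, edgeR adjusted p = 0.99997).

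The make-up of the members as a group shifted between the populations, which no scaling of the libraries can change. Each member's count per kb was taken as a percent of the sum of the 9 in each library. *Kel*, *Ermap* and *Cd47* together made up 38.7% ± 2.71 (SD, n = 4) of this sum in *Ypel4*+/+ Poly-E and 60.4% ± 0.928 in *Ypel4*+/+ Ortho-E cells, and 38.4% ± 1.64 and 61.5% ± 1.41 in *Ypel4*-/- mice. These 3 were put together after their values were seen, so no test is given. *Kel* went from 20.4% ± 2.58 to 33.5% ± 2.26 in *Ypel4*+/+ mice, and *Ermap* from 14.1% ± 0.704 to 20.8% ± 1.41. *Rhd* went from 37.8% ± 1.77 to 26.6% ± 0.960, *Gypc* from 12.8% ± 0.569 to 7.24% ± 0.249, and *Icam4* from 7.11% ± 0.506 to 3.55% ± 0.346. *Cd47* went from 4.22% ± 0.193 to 6.14% ± 0.797, *Slc14a1* from 2.74% ± 0.0672 to 1.65% ± 0.295 and *Xk* from 0.815% ± 0.161 to 0.577% ± 0.128. These shares use full exon lengths. With the shorter length of *Cd47* its mean share in *Ypel4*+/+ mice went from 6.30% to 9.07%, against 7.02% for *Gypc* in Ortho-E. *Kel*, *Ermap* and *Cd47* together then made up 40.0% in Poly-E and 61.7% in Ortho-E cells of these mice. In *Ypel4*-/- mice *Kel* went from 20.2% ± 1.29 to 33.5% ± 1.67 and *Rhd* from 37.7% ± 1.19 to 25.9% ± 1.46.

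**Figure D4:**
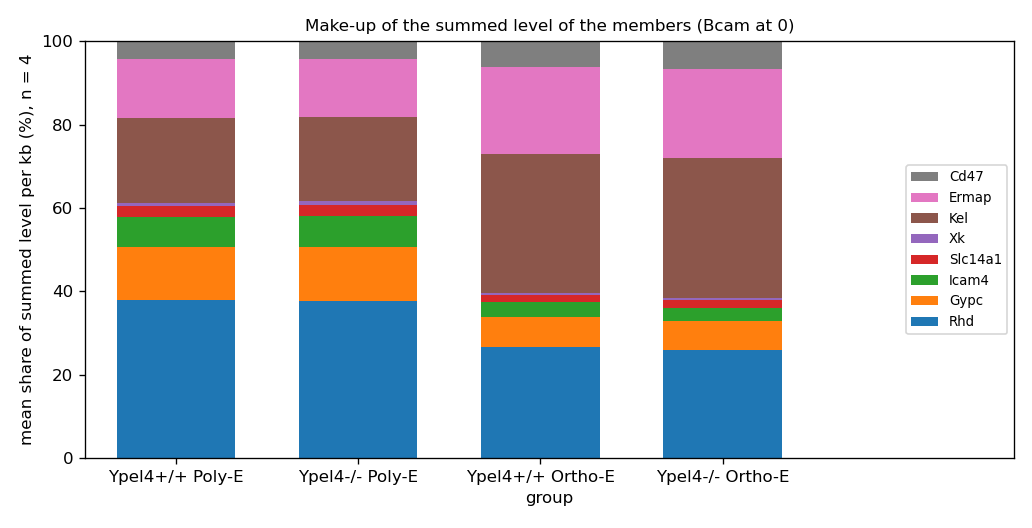
Mean share of each member in the summed counts per kb of the 9 members, with full exon lengths (stacked bars, n = 4 libraries per group, axis from 0 to 100%). The bars of *Kel*, *Ermap* and *Cd47* take 38.7% and 38.4% of the sum in Poly-E, against 60.4% and 61.5% in Ortho-E (*Ypel4*+/+ first, then *Ypel4*-/-).

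*Ypel4*-/- and *Ypel4*+/+ cells were then compared within each population. In Poly-E cells 0 of the 8 members tested were called, beside 0.00807% of all 12395 genes, which was *Ypel4* alone (edgeR's quasi-likelihood test). None of the 8 had an unadjusted p under 0.05, and 0 were called by DESeq2. The log2 differences ran from -0.083 (*Ermap*) to 0.025 (*Xk*), with SEs between 0.093 and 0.12. For *Kel*, for example, the normal 95% interval reached from -0.30 to 0.14, and for *Gypc* from -0.24 to 0.12. In Ortho-E cells 0 of the 8 members were called, beside 0.0285% of 10521 genes, and 0 by DESeq2. *Icam4* was the member with an unadjusted p under 0.05, 1 of 8, at a log2 difference of -0.26 (SE 0.12, edgeR adjusted p = 0.995). Its mean was 114 ± 8.47 CPM in *Ypel4*-/- and 138 ± 20.0 CPM in *Ypel4*+/+ Ortho-E libraries (SD, n = 4), and the ranges overlapped by the lowest *Ypel4*+/+ and the highest *Ypel4*-/- library, 123.6 and 123.7 CPM. With library totals the means were 75.1 and 87.7 CPM, and the 4 *Ypel4*-/- libraries lay below the 4 *Ypel4*+/+ libraries. *Slc14a1* had the highest difference, 0.13 (SE 0.11), and the other 6 lay between -0.088 (*Rhd*) and 0.056 (*Cd47*). The normal 95% interval of *Kel* reached from -0.24 to 0.13, that of *Cd47* from -0.14 to 0.25 and that of *Icam4* from -0.50 to -0.029.

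The step from Poly-E to Ortho-E was also compared between the genotypes. In the interaction of genotype and population 0 of 8 members were called, beside 0.0% of 13318 genes with edgeR and 0 members with DESeq2, and none of the 8 had an unadjusted p under 0.05. The interaction estimates ran from -0.26 (*Icam4*, SE 0.17) to 0.17 (*Slc14a1*, SE 0.17). The ratios were compared between the genotypes too. *Kel* to *Xk* differed between *Ypel4*-/- and *Ypel4*+/+ cells by -0.12 in Poly-E and -0.097 in Ortho-E on the log2 scale, *Rhd* to *Rhag* by 0.057 and 0.019, and *Gypc* to *Mpp1* by 0.0010 and 0.12 (exact permutation p between 0.686 and 0.971). These 6 comparisons overlapped in range. A p that misses the threshold does not show that the genotypes are alike.

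**Figure D5:**
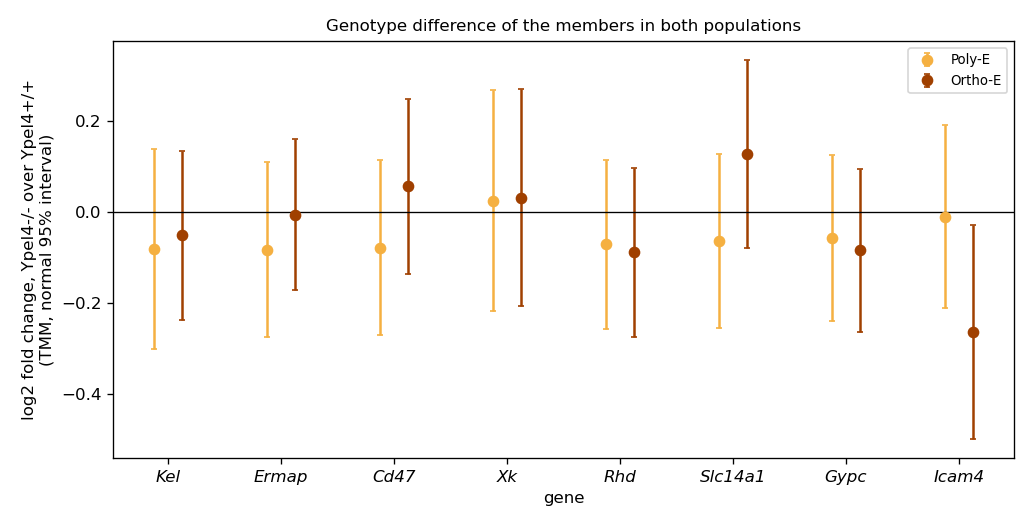
Log2 fold change of 8 members from *Ypel4*+/+ to *Ypel4*-/- in Poly-E and Ortho-E cells (points, edgeR with TMM, bars normal 95% intervals). The bars cross 0 for all members in Poly-E and for all but *Icam4* in Ortho-E, and no member passed the adjusted test.

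Other genes around the members were taken from lists. Of 8 genes of partner proteins, 7 were higher in Ortho-E and 1, *Vps13a*, was lower with TMM in each genotype, beside 26.4% of all genes higher and 32.1% lower in *Ypel4*+/+ and 29.5% and 31.5% in *Ypel4*-/- cells. The median log2 difference of the 8 was 1.66 in *Ypel4*+/+ and 1.85 in *Ypel4*-/- cells, against -0.19 and -0.089 for all genes. With library totals *Slc4a1*, *Epb42*, *Rhag*, *Epb41* and *Mpp1* stayed higher and *Ank1* and *Vps13a* were lower in both genotypes. *Slc4a1*, which encodes band 3, had log2 differences of 1.61 and 1.83 with TMM and 0.33 and 0.42 with library totals.

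Of 23 genes of other blood group carriers, 21 were tested. With TMM 9 were higher and 7 lower in Ortho-E in *Ypel4*+/+ cells, and 11 higher and 5 lower in *Ypel4*-/- cells, beside 26.4% of all genes higher and 32.1% lower and 29.5% and 31.5%. With library totals 4 were higher and 15 or 14 lower, beside 10.4% and 60.3% of all genes in *Ypel4*+/+ and 11.2% and 60.9% in *Ypel4*-/- cells, and the 4 were *Slc4a1*, *Rhag*, *Art4* and *Cd59a* in both genotypes. *Art4*, which carries the Dombrock antigens, had the highest log2 difference, 2.70 in *Ypel4*+/+ and 2.78 in *Ypel4*-/- cells with TMM and 1.43 and 1.35 with library totals. *Slc29a1*, a nucleoside transporter, fell in both genotypes, with log2 differences of -2.26 and -2.17 with TMM and -3.54 and -3.58 with library totals. *Cd151*, a tetraspanin, fell as well and was lowest in *Ypel4*+/+ cells, at -2.36 with TMM and -3.64 with library totals. This value rests on 301 counts in Poly-E and 16 in Ortho-E, summed over 4 libraries each. *Smim1*, which carries the Vel antigen, fell with log2 differences of -1.17 and -1.11 with TMM and -2.46 and -2.53 with library totals. *Cd44* was lower as well, at -1.27 and -1.59 with TMM, but its protein was used to sort the populations. It had only 15 counts in *Ypel4*+/+ and 13 in *Ypel4*-/- Ortho-E libraries, summed over 4 each. *Slc4a1* and *Rhag* are also on the list of partners. Of 8 blood group glycosyltransferases, 7, among them *Abo* with 0 counts in each library, were too low to be tested, and *B4galnt2* had a log2 difference of -0.72 (edgeR adjusted p = 0.225) in *Ypel4*+/+ and -0.51 (edgeR adjusted p = 0.395) in *Ypel4*-/- cells with TMM.

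Of 6 erythroid regulators, 1 was higher and 4 lower in *Ypel4*+/+ cells with TMM, and 1 higher and 2 lower in *Ypel4*-/- cells, beside 26.4% of all genes higher and 32.1% lower in the former and 29.5% and 31.5% in the latter. *Nfe2* rose, with log2 differences of 2.07 and 2.28. *Ldb1* and *Klf1* fell in both genotypes, *Ldb1* at -1.61 and -1.38 and *Klf1* at -0.40 and -0.43. *Gata1* and *Zfpm1* fell in *Ypel4*+/+ cells, at -0.30 and -0.57, and their values in *Ypel4*-/- cells were -0.18 and -0.33, which did not pass. *Tal1* did not pass in either. With library totals *Nfe2* stayed higher, at 0.78 and 0.87, and the other 5 were lower in both genotypes. No gene of these 4 lists was called between the genotypes in Poly-E or in Ortho-E, or in the interaction. Their lowest edgeR adjusted p was 0.9998 in Poly-E, 0.995 in Ortho-E and 0.99997 in the interaction.

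Genes whose pattern over the 16 libraries was most like that of each member were found by the root mean square difference in log2 CPM, after subtraction of each gene's own mean, among 4834 other genes with a mean of at least 10 CPM. The 16 libraries share their populations, mice and depth, so this is a description and no p is given. *Ermap* was nearest to *Slc4a1* (0.058) and *Vcp* (0.060), and *Cd47* to *Trim28* (0.062) and *Slc4a1* (0.068). *Kel* was nearest to *Stradb* (0.064) and *Urod* (0.070), *Rhd* to *Nucb1* (0.056) and *Napa* (0.086), and *Gypc* to *Slc43a3* (0.080) and *Prrc2c* (0.091). *Slc14a1* was nearest to *Sppl3* (0.080) and *Cltc* (0.11), *Xk* to *Sdcbp* (0.099) and *Bptf* (0.13), and *Icam4* to *Mpst* (0.11) and *Mdh2* (0.12). Among the members themselves *Ermap* and *Cd47* were the closest pair, at 0.074, with *Cd47* the 9th nearest gene to *Ermap* and *Ermap* the 6th nearest to *Cd47*. The partners *Kel* and *Xk* were 0.68 apart, and *Xk* was the 1606th nearest gene to *Kel*.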

How the data were processed

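RNA was measured in 16 libraries. The authors prepared them with TruSeq v2, aligned the reads to GRCm38 with the nf-core RNA-seq pipeline, and deposited counts per gene, made by featureCounts 1.6.4 per the file headers. The deposited counts are not normalized, ignore strand, and hold no read that fits several places or falls on several genes. P-values measure the spread between these samples. Groups and replicate numbers came from the sample titles, and 0 libraries were copies of another. Whether the mice were litter mates is not given in the sources used here.

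Members were matched by symbol. The members, lists and tests were chosen with earlier results of these data known. Genes were named by a rule: the members, *Ypel4*, called, lowest and highest list genes, partners and sort markers, the 2 nearest genes of each member, and overlapping genes. Single values of some listed genes are not reported here.

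Counts were tested in R 4.3.3 with edgeR 4.0.16 (quasi-likelihood, robust, TMM) for genes with at least 10 counts over a fit's libraries, with Benjamini-Hochberg adjustment at 0.05. The study used DESeq2, which was run here as an alternative (1.42.0). Printed CPM used TMM factors over all 16 libraries. Ratios used counts per kb with 0.5 added and exact two-sided permutation tests. A floor of 3 counts was used, and floors cover counting error only. Lists matched in full except *Ahsp*, *Hbb-b1* and *Hbb-b2*. Marker lists were late and early erythroid, granulocyte and monocyte, macrophage, megakaryocyte and platelet, lymphocyte, and endothelium and stroma. The early erythroid genes summed to 2884 to 3463 CPM in Poly-E and 7099 to 8852 CPM in Ortho-E. Promoters came from RefSeq. The edgeR fit was tested on simulated data.

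Replicate numbers are read as mice between populations: both libraries of a number share a further number in their deposited names. Over 4835 genes the deviations of such pairs correlated at 0.49 to 0.65 without the allele and at 0.086 to 0.56 with it. Libraries of unlike numbers ran from -0.50 to 0.43 and from -0.47 to 0.29. Between genotypes a shared number is not a shared mouse. There like numbers ran from 0.23 to 0.64 in Poly-E and from -0.13 to 0.34 in Ortho-E. Unlike numbers ran from -0.58 to 0.60 and from -0.40 to 0.32, and the main fits held no pairing between genotypes. Alternatives were DESeq2's size factors, library totals, filterByExpr, no filter, globin genes left out, a replicate block, a term for replicates 1 and 2 against 3 and 4, all 16 libraries in one fit, and each library left out.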

Additional observations from a re-analysis of the deposited data

Results flagged for a closer look

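In 44 groups of 4 values, the level of a member or a ratio in a group, 2 held a library far from the other 3 by Dixon's test at the 95% level, and chance alone flags about 1 group in 20. *Slc14a1* was at 229.3 CPM in *Ypel4*+/+ Poly-E replicate 2, where the other 3 libraries lay between 239.9 and 241 CPM. The ratio of *Rhd* to *Rhag* was 3.25 in *Ypel4*-/- Poly-E replicate 4, where the other 3 lay between 2.58 and 2.69.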

How the results depend on the processing

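Called members ranged from 5 to 7 of 8 in the *Ypel4*+/+ and from 6 to 7 in the *Ypel4*-/- step over the 8 settings other than library totals, and over the same ranges when each library was left out. With all 16 libraries in 1 fit they were 5 higher in *Ypel4*+/+ cells, and 6 higher and 1 lower in *Ypel4*-/- cells. With the replicate block, which uses the pairing by mouse, 7 were called in each genotype, *Gypc* in *Ypel4*+/+ being gained at 0.19. The block changed no other call of a member, and 0 members were called between genotypes or in the interaction under any setting run. In the main fits 26.4% of all genes were called higher and 32.1% lower in *Ypel4*+/+ cells, and 29.5% and 31.5% in *Ypel4*-/- cells. Shares with library totals are given above, and those of the other settings are not reported here. The counts of members under those settings therefore show only how steady the members' own calls were. As a part of the calls across all genes, those that were higher made up 45.1% with TMM and 14.7% with library totals in *Ypel4*+/+ cells, and 48.4% and 15.5% in *Ypel4*-/- cells.

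Library totals turned *Gypc* to -1.09 and -1.13, *Rhd* to -0.78 and -0.81, *Xk* to -0.77 and -0.79 and *Slc14a1* to -0.999 and -0.83 in *Ypel4*+/+ and *Ypel4*-/- cells, and *Icam4* to -1.27 in *Ypel4*+/+ cells. They also turned the genotype difference of *Icam4* in Poly-E to 0.042 and that of *Ermap* in Ortho-E to 0.027. *Icam4* in *Ypel4*+/+ cells was -0.019 with all 16 libraries and -0.034 with no filter, and in *Ypel4*-/- cells 0.019 with filterByExpr and -0.28, called lower, with all 16 libraries. The interaction of *Xk* was 0.011 with DESeq2's size factors and 0.011 with DESeq2. *Gypc* in *Ypel4*+/+ cells was called with DESeq2's size factors, with DESeq2 (0.33 each) and with filterByExpr (0.38). Calls were lost with all 16 libraries and with no filter for *Slc14a1* in *Ypel4*+/+ cells (0.25 and 0.23) and for *Gypc* in *Ypel4*-/- cells (0.11 and 0.21). The causes were not tested.

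Leaving out each library gave *Icam4* from -0.082 to 0.17 in the *Ypel4*+/+ step. Genotype differences then ran in Poly-E from -0.13 to 0.032 for *Kel*, -0.064 to 0.14 for *Xk* and -0.069 to 0.024 for *Icam4*, and in Ortho-E from -0.12 to 0.017 for *Kel*, -0.077 to 0.11 for *Xk*, -0.036 to 0.035 for *Ermap* and -0.0023 to 0.12 for *Cd47*. Interactions ran from -0.084 to 0.075 for *Gypc*, -0.070 to 0.089 for *Rhd*, -0.032 to 0.12 for *Kel* and -0.13 to 0.17 for *Xk*. The genotype difference of the log2 ratio ran from -0.27 to 0.087 in Poly-E and -0.21 to 0.093 in Ortho-E for *Kel* to *Xk*, from -0.052 to 0.12 and -0.046 to 0.12 for *Rhd* to *Rhag*, and from -0.21 to 0.13 in Poly-E for *Gypc* to *Mpp1*. None of these values passed a test. Another scaling, or the shorter *Cd47* length, moved 59 group levels by more than 1 SD and 9 by less. That length was chosen after seeing the data. The order of *Cd47* and *Gypc* in Ortho-E and the separation of *Cd47* and *Icam4* in Poly-E depend on it. Among the tested members, depth limits *Xk* and *Icam4* most, with 1470 and 1552 counts in *Ypel4*+/+ Ortho-E libraries.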
